A study of Arabidopsis thaliana with 12 samples.

Results

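The 10 genes described here make, break down, perceive and transmit brassinosteroids in *Arabidopsis thaliana*. They were taken by locus from the table of 37336 genes, with none left out for its values, and all 10 had a row. The list itself was chosen with earlier results of these data known. They comprise 6 synthesis genes, DET2 (AT2G38050), DWF4 (AT3G50660), CPD (AT5G05690), ROT3 (AT4G36380), BR6OX1 (AT5G38970) and BR6OX2 (AT3G30180). The other members are the inactivation gene BAS1 (AT2G26710), the receptor gene BRI1 (AT4G39400) and the transcription factor genes BZR1 (AT1G75080) and BES1 (AT1G19350). Transcripts were measured by RNA-seq in whole seedlings of 4 groups with 3 biological replicates each, 12 samples in all, and the study's methods speak of independent experiments. The groups were CsPYL1_5m seedlings given 5 µM iSB09, CsPYL1_5m seedlings given mock treatment, WT seedlings given 5 µM iSB09 and WT seedlings given mock treatment. Seedlings were collected 3 hours after treatment, the mock treatment was DMSO, and the sample labels give 12 days of growth in liquid medium, whereas the study's methods call the seedlings ten-day-old. WT is the accession Col-0, and the CsPYL1_5m plants are Col-0 plants that express an HA-tagged, mutated sweet orange ABA receptor from the 35S promoter, which is active in most tissues. iSB09 is a synthetic agonist of ABA receptors, and the mutated receptor was built to respond to it, so the comparisons ask how brassinosteroid genes respond to ABA receptor activation with the native receptors alone and with the added receptor.

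Brassinosteroids are steroid hormones that drive cell elongation and are built from campesterol by reductases and cytochrome P450 enzymes. The receptor kinase BRI1 binds the hormone at the cell surface, and a kinase cascade then releases the transcription factors BZR1 and BES1 from inhibition by the GSK3-like kinase BIN2. Active BZR1 and BES1 repress several synthesis genes, which gives feedback control, and activate growth genes. ABA, the hormone of water deficit and seed dormancy, opposes brassinosteroids in germination and seedling growth.

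The 250 bases before the annotated start were searched on both strands for elements of both hormone pathways, and 5 of the promoters, chosen after the values were seen, are shown as contrasts. BES1 and BZR1 are the closest relatives among the members and had unlike responses, BRI1 is the receptor gene, and CPD and BR6OX2 are synthesis genes that moved in opposite directions in CsPYL1_5m plants. The motifs were the brassinosteroid response element to which BZR1 binds (CGTGTG or CGTGCG), the core of the ABA response element (ACGTG), the G-box (CACGTG, which contains that core on both strands) and the E-box bound by BES1 (CATGTG). Capitals mark matches to any of these on either strand, and positions and sequences are those of the TAIR10.1 assembly with its RefSeq annotation, written 5′ to 3′ on the gene's strand. Gene coordinates given later use the same build.
BES1 (chr1:6688213-6688462, plus strand): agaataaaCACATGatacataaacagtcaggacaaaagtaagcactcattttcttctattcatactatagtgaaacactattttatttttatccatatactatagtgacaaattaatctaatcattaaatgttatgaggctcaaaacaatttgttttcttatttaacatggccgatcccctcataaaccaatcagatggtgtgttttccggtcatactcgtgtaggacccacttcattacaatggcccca
BZR1 (chr1:28185254-28185503, plus strand): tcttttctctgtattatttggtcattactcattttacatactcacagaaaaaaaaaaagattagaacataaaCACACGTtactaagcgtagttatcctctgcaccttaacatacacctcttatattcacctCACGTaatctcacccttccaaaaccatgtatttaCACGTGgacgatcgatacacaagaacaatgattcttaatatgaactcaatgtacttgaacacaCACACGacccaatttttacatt
BRI1 (chr4:18324207-18324456, plus strand): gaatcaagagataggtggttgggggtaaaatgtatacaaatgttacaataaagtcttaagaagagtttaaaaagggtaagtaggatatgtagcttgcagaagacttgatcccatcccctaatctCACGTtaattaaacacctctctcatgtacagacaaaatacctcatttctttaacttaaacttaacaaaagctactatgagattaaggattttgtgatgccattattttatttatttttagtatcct
CPD (chr5:1706949-1707198, minus strand): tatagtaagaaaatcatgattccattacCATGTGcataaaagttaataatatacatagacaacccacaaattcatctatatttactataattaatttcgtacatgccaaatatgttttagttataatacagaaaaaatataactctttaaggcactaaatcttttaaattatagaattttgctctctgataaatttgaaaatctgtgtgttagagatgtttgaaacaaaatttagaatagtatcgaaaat
BR6OX2 (chr3:11810476-11810725, plus strand): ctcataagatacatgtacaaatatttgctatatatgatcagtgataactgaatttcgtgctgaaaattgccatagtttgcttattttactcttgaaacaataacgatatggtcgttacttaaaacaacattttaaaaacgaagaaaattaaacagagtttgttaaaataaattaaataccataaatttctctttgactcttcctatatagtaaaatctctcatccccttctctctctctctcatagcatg
Of the 10 members, 1 held the brassinosteroid response element, against 6.71% of 27443 promoters of the same length, and 2 held the ABA response core, against 22.9%. BZR1 held 2 brassinosteroid response elements, at 178 and 22 bases before the start, 4 ABA response core matches and the G-box, which 1 of 10 members and 6.49% of promoters held. BRI1 held 1 ABA response core, 126 bases before the start, and BES1, CPD and BR6OX2 held none. The E-box was found in 4 members, DET2, CPD, BR6OX1 and BES1, against 11.1% of promoters. These are matches of letters, and no binding was measured. Bases further upstream or after the annotated start were not searched, so a member without a match here may hold the element elsewhere.

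The depth, recovered from the RPKM values, ran from 21502003 to 30696833 reads on genes per sample. Every CsPYL1_5m library, with 25746050 reads or more, was deeper than every WT library, with 21754261 or fewer, so depth and genotype cannot be told apart. The second replicate of WT with iSB09 stood furthest from its group, with a root mean square deviation of 0.466 on the log2 scale over 19945 genes, against 0.1996 to 0.357 in the other 11 libraries. Shoot markers (3 genes) and root markers (4 genes) were above 0 in all samples. The ABA marker RD29B averaged 598 TPM in CsPYL1_5m plants with iSB09 and 0.198 TPM in mock-treated CsPYL1_5m plants, and 4.62 TPM in WT with iSB09 and 0.333 TPM in mock-treated WT. The treated libraries thus carried the response that their labels give.

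TPM, the share of transcripts that come from a gene, is scaled for gene length, so levels may be compared between genes. In mock-treated WT, BES1 was the highest member at 110.6 ± 3.75 TPM and BR6OX1 the lowest at 1.39 ± 0.47 TPM (SD, n = 3 each). BRI1 at 64.8 ± 9.41 TPM, CPD at 43.0 ± 5.95 TPM and DET2 at 30.3 ± 2.45 TPM followed BES1, and the ranges of these neighbours did not overlap. BZR1 at 22.0 ± 0.74 TPM, ROT3 at 16.5 ± 2.75 TPM, BR6OX2 at 12.8 ± 0.58 TPM, DWF4 at 7.47 ± 0.44 TPM and BAS1 at 3.37 ± 0.36 TPM came next, again without overlap between neighbours. With iSB09, BZR1, DET2, BR6OX2 and ROT3 lay so close that each overlapped its neighbour, in CsPYL1_5m plants and in WT.

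**Figure D1:**
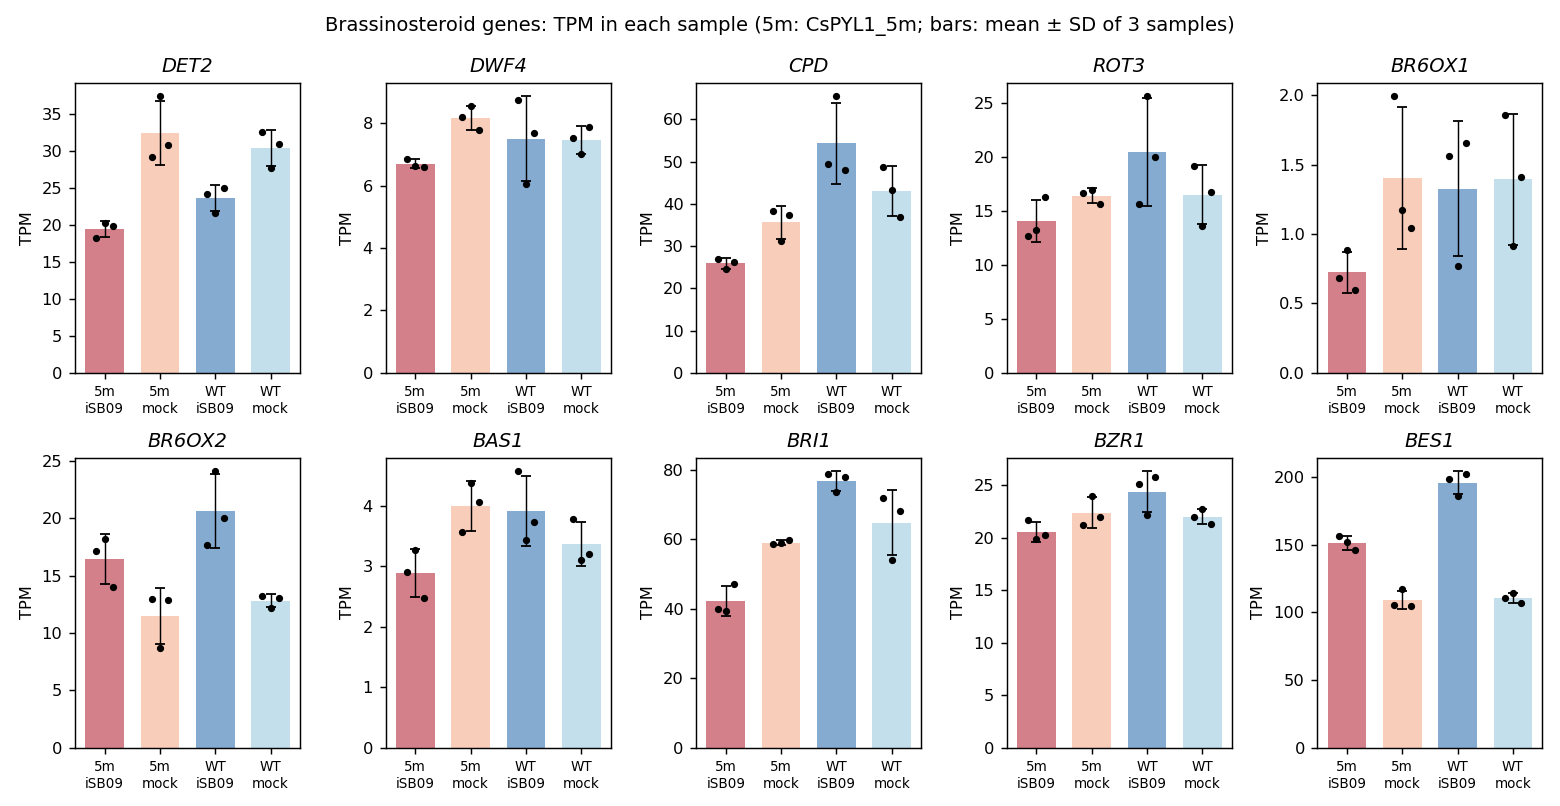
TPM of the 10 members in each of the 12 samples. Each panel is 1 gene with a linear axis from 0, points are samples, bars are means, error bars are SD over 3 samples, and 5m stands for CsPYL1_5m. BES1 was higher with iSB09 in both genotypes, at 145.9 to 156.2 TPM in CsPYL1_5m plants and 186.3 to 202.3 TPM in WT.

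In CsPYL1_5m plants, iSB09 changed 8 of the 10 members, each by less than 2-fold, where 66.4% of all genes tested changed at the same adjusted p. Genes were compared with limma on log2(TPM + 0.5), and "rose" or "fell" is used where the Benjamini-Hochberg adjusted p over all genes tested was below 0.05. BES1 and BR6OX2 rose, and DET2, BR6OX1, BRI1, CPD, BAS1 and DWF4 fell. BR6OX1 passed the level filter only through the mock group, where it was higher. The 2 of 10 members that rose compare with 24% of the 19862 genes tested, and the 6 that fell compare with 42.3%. No member also passed an absolute log2 fold change of 1, which 17.5% of genes did, while 8 of 10 had an unadjusted p below 0.05. Limma voom on recovered reads, which could test 6 of the members, gave 0 past both thresholds, against 1339 genes higher and 1456 lower. The share of all genes at an unadjusted p was not counted in any comparison, so such counts stand without it. The median log2 fold change was -0.34 over the members and -0.16 over all genes tested.

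The samples were whole seedlings, in which fewer cells of a type and less RNA per cell cannot be told apart. Of the root markers, 3 of 4 fell in CsPYL1_5m plants, where 42.3% of all genes fell. The log2 fold changes were -1.72 for PHT1;1, -0.56 for SCR and -0.21 for COBL9, while PIN2 had 0.03 (adjusted p = 0.834). In WT 1 of 4 fell, PHT1;1 with -0.53, where 7.13% of all genes fell. The summed level of the 4 was 98.1 to 109.2 TPM in CsPYL1_5m plants with iSB09, 223.1 to 251.0 TPM in mock-treated ones, 169.5 to 193.3 TPM in WT with iSB09 and 210.1 to 243.7 TPM in mock-treated WT. PHT1;1 weighs most in this sum, with 1768 to 7264 reads per sample, against at most 1356 for any other root marker. None of the 4 was at 0 in any sample, and 0 of 3 shoot markers passed the test in limma in CsPYL1_5m plants, 1 of them with an unadjusted p below 0.05. The part of tissue composition in the member and related gene changes was not tested.

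In WT, with the native receptors only, 2 of 9 members tested rose, BES1 and BR6OX2, against 7.5% of 19612 genes, and none fell, against 7.13%. With the replicate number as pairing, DET2 also fell (adjusted p = 0.0419). Without WT mock replicate 3, genes past the adjusted p numbered 446 higher and 311 lower, in place of 1471 and 1398. They numbered 618 and 516 without mock replicate 2, and 554 and 492 without iSB09 replicate 3, so these shares depend on which library is left out. BR6OX1 did not reach 1 TPM in all 3 samples of a WT group and was not tested. No member passed both thresholds in limma, against 3.82% of genes, and 3 had an unadjusted p below 0.05. Limma voom on recovered reads, which covered 6 of the members, gave 0 past both thresholds, and 1 higher and 1 lower at the adjusted p. Of 12832 genes, voom put 855 higher and 1173 lower at the adjusted p. The median log2 fold change was 0.25 over the members and 0.01 over all genes tested.

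**Figure D2:**
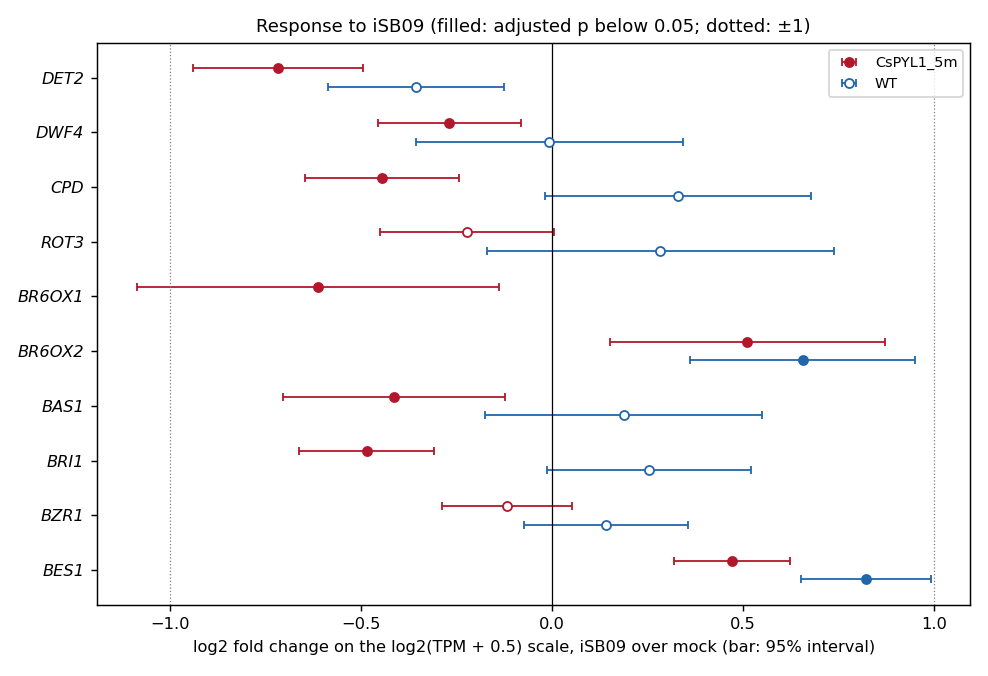
Log2 fold change of each member with iSB09 over mock on the log2(TPM + 0.5) scale, for CsPYL1_5m plants (red, upper) and WT (blue, lower). Bars are 95% intervals from limma, filled points have an adjusted p below 0.05, dotted lines mark ±1, and BR6OX1 was not tested in WT. BES1 and BR6OX2 lie right of 0 in both genotypes, while CPD, ROT3, BAS1, BRI1 and BZR1 lie left of 0 in CsPYL1_5m plants only. Of these, ROT3 and BZR1 did not pass the adjusted p there.

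DET2 (chr2:15921136-15922321, minus strand) encodes the steroid reductase of an early step of the pathway. It had 18.2, 20.3 and 19.8 TPM in CsPYL1_5m plants with iSB09, against 29.1, 37.3 and 30.8 TPM in mock-treated CsPYL1_5m plants. All 3 treated samples lay below all 3 mock samples, and DET2 fell by 0.72 on the log2 scale (SE 0.098, adjusted p = 0.000189). In WT it had 24.1, 21.6 and 25.0 TPM with iSB09, against 32.5, 27.7 and 30.8 TPM with mock treatment. These groups did not overlap either, but the estimate, -0.36 on the log2 scale with SE 0.099, had an adjusted p of 0.0522. Blocking on the replicate number gave an adjusted p of 0.0419. An exon of DET2 overlaps AT2G38040 on the other strand, which averaged 125.1 TPM in CsPYL1_5m plants with iSB09 and 122.0 TPM in mock-treated ones. The deposited tables come from counting without strand, so reads from such a shared stretch cannot be told apart.

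DWF4 (chr3:18813949-18817405, minus strand) encodes the hydroxylase regarded as rate-limiting. It had 6.86, 6.64 and 6.60 TPM in CsPYL1_5m plants with iSB09, against 8.21, 8.56 and 7.78 TPM in mock-treated ones. The groups did not overlap, and DWF4 fell by 0.27 on the log2 scale (SE 0.082, adjusted p = 0.0172). Under median-ratio scaling, which sets the median gene to no change, the log2 fold change was -0.11 with an adjusted p of 0.240, and without mock replicate 2 the adjusted p was 0.0562. In WT its values were 8.76, 6.06 and 7.70 TPM with iSB09, against 7.53, 7.01 and 7.89 TPM with mock treatment. These WT groups overlapped, with a log2 fold change of -0.01 and a 95% interval from -0.36 to 0.34.

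CPD (chr5:1702640-1706948, minus strand) encodes another P450 of the pathway and is a classical target of feedback repression. It had 27.0, 24.5 and 26.2 TPM in CsPYL1_5m plants with iSB09, against 38.3, 31.2 and 37.3 TPM in mock-treated ones. The groups did not overlap, and CPD fell by 0.45 on the log2 scale (SE 0.089, adjusted p = 0.00184). WT seedlings had 49.5, 65.5 and 48.1 TPM with iSB09, against 48.8, 43.3 and 36.9 TPM with mock treatment. The WT groups overlapped, and the log2 fold change of 0.33 (95% interval -0.02 to 0.68) had an adjusted p of 0.178. The highest value came from the WT library that stood apart, and without that library the log2 fold change was 0.19 (adjusted p = 0.353). The neighbour AT5G05680, whose exons overlap those of CPD, averaged 10.4 TPM in CsPYL1_5m plants with iSB09, 16.5 TPM in mock-treated CsPYL1_5m plants, 16.8 TPM in WT with iSB09 and 16.9 TPM in mock-treated WT. Its part in the CPD values was not tested.

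ROT3 (chr4:17187528-17192507, minus strand) encodes a hydroxylase whose activity it shares with CYP90D1. It had 12.7, 13.2 and 16.3 TPM in CsPYL1_5m plants with iSB09, against 16.6, 17.0 and 15.6 TPM in mock-treated ones. These groups overlapped, with a log2 fold change of -0.22 and an adjusted p of 0.0771, which was 0.00724 without iSB09 replicate 3, the highest treated sample. The WT levels were 15.6, 25.6 and 19.99 TPM with iSB09, against 19.1, 13.6 and 16.8 TPM with mock treatment. The highest value came from the WT library that stood apart, and the log2 fold change of 0.28 had an adjusted p of 0.366.

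BR6OX1 (chr5:15594674-15598089, minus strand) and BR6OX2 (chr3:11810726-11813883, plus strand) encode the oxidases of the last steps, and BR6OX2 can also form brassinolide, the most active brassinosteroid. BR6OX1 had 0.69, 0.88 and 0.60 TPM in CsPYL1_5m plants with iSB09, against 1.99, 1.18 and 1.05 TPM in mock-treated ones. The groups did not overlap at these low levels, and BR6OX1 fell by 0.61 on the log2 scale (SE 0.21, adjusted p = 0.0276), a fold that the pseudocount of 0.5 understates at this level. All 3 mock samples reached 1 TPM and the treated samples did not, so BR6OX1 was tested only through the group where it was higher. The adjusted p was 0.064 under median-ratio scaling. It was 0.0964 without mock replicate 1, where the log2 fold change was -0.40, 0.0651 without iSB09 replicate 1 and 0.0831 without iSB09 replicate 3. In WT, BR6OX1 had 1.56, 0.77 and 1.65 TPM with iSB09, against 1.86, 0.92 and 1.41 TPM with mock treatment, and these ranges overlapped.

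BR6OX2 was the only synthesis gene among the members that rose. It had 17.2, 18.2 and 14.0 TPM in CsPYL1_5m plants with iSB09, against 13.0, 8.70 and 12.8 TPM in mock-treated ones. The lowest treated sample lay above the highest mock sample, and BR6OX2 rose by 0.51 on the log2 scale (SE 0.16, adjusted p = 0.0183). In WT it had 17.7, 24.1 and 20.1 TPM with iSB09, against 13.2, 12.1 and 13.1 TPM with mock treatment. The WT groups did not overlap, and the gene rose by 0.66 (SE 0.13, adjusted p = 0.0164). Without replicate 1 or 2 of CsPYL1_5m with iSB09 the adjusted p in CsPYL1_5m plants was 0.0564 and 0.0711. In WT it was 0.0626, 0.0706 and 0.0623 without mock replicate 2, mock replicate 3 or iSB09 replicate 3. Without mock replicate 2 of CsPYL1_5m, the lowest mock sample, the rise was 0.33 and still passed. Direction was kept in each case, and no exon of another gene overlaps BR6OX2, though BR6OX1 is 76.9% identical to it over 635 aligned bases.

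BAS1 (chr2:11380463-11383821, plus strand) encodes a P450 that inactivates brassinosteroids. It had 2.91, 3.27 and 2.48 TPM in CsPYL1_5m plants with iSB09, against 3.56, 4.38 and 4.06 TPM in mock-treated ones. The groups did not overlap, and BAS1 fell by 0.41 on the log2 scale (SE 0.13, adjusted p = 0.0182). Under median-ratio scaling the adjusted p was 0.102, and it was 0.0578 without mock replicate 2, 0.0544 without mock replicate 3 and 0.057 without iSB09 replicate 3. WT seedlings had 4.57, 3.44 and 3.73 TPM with iSB09, against 3.78, 3.11 and 3.21 TPM with mock treatment. The WT groups overlapped, with a log2 fold change of 0.19 and an adjusted p of 0.453.

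BRI1 (chr4:18324457-18328831, plus strand), the receptor gene, lies in 1 exon. It had 40.05, 39.3 and 47.2 TPM in CsPYL1_5m plants with iSB09, against 58.6, 58.8 and 59.9 TPM in mock-treated ones. The groups stood well apart, and BRI1 fell by 0.49 on the log2 scale (SE 0.078, adjusted p = 0.000527). The WT levels were 78.8, 73.6 and 77.9 TPM with iSB09, against 72.0, 54.1 and 68.2 TPM with mock treatment. Here every treated sample lay above every mock sample, but the log2 fold change of 0.25 (95% interval -0.01 to 0.52) had an adjusted p of 0.178. BRI1 rested on 3052 to 4902 reads per sample, and the closest match found, BRL3, is 73.3% identical over 772 aligned bases.

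BZR1 (chr1:28185504-28188075, plus strand) did not pass the test in either genotype. It had 21.7, 19.9 and 20.3 TPM in CsPYL1_5m plants with iSB09, against 21.2, 24.0 and 22.0 TPM in mock-treated ones. The ranges overlapped, and the log2 fold change of -0.12 had a 95% interval from -0.29 to 0.05. In WT it had 25.2, 22.2 and 25.8 TPM with iSB09, against 22.0, 22.8 and 21.3 TPM with mock treatment. These overlapped too, with a log2 fold change of 0.14 and an interval from -0.07 to 0.36.

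BES1 (chr1:6688463-6691216, plus strand) rose in both genotypes. It had 156.2, 151.8 and 145.9 TPM in CsPYL1_5m plants with iSB09, against 105.3, 117.1 and 105.1 TPM in mock-treated ones. The groups were far apart, and BES1 rose by 0.47 on the log2 scale (SE 0.067, adjusted p = 0.000233). WT seedlings had 198.9, 186.3 and 202.3 TPM with iSB09, against 110.7, 114.3 and 106.8 TPM with mock treatment. This was the largest change of any member in WT, a rise of 0.82 (SE 0.073, adjusted p = 0.00122). It was 0.86 with an adjusted p of 0.000637 without the WT library that stood apart. BES1 and BZR1 are 83.8% identical over 751 aligned bases, and only uniquely mapped read pairs were kept, so some pairs of each may have been discarded. AT1G19360, which overlaps BES1 on the other strand, averaged 17.0 TPM in CsPYL1_5m plants with iSB09 and 26.4 TPM in mock-treated ones, 22.8 TPM in WT with iSB09 and 26.6 TPM in mock-treated WT. Its part in the BES1 values was not tested.

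Without iSB09, no difference between the genotypes passed the test for any member. In mock samples 0 of 10 members passed the adjusted p in limma, against 0.0717% of 19530 genes, and 0 passed with the fold threshold, against 0.0666%. None had an unadjusted p below 0.05, and limma voom gave 0 as well. The log2 fold changes of CsPYL1_5m against WT ran from -0.26 for CPD (95% interval -0.54 to 0.01) to 0.22 for BAS1 (interval -0.09 to 0.52).

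With iSB09, each of the 9 members tested had a negative log2 fold change in CsPYL1_5m plants against WT, except that DWF4 moved to 0.02 under median-ratio scaling. The share of all genes below 0 was not counted, and this sign was not particular to the members. It was also found for 3 of 3 shoot markers, 3 of 4 root markers, 15 of 15 receptor and cascade genes and 2 of 5 other inactivation genes. CPD, BRI1, BES1, DET2 and BZR1 were lower at the adjusted p, 5 of 9 against 34.9% of 19656 genes, and none was higher, against 16.2%. CPD fell furthest, at -1.04 on the log2 scale (SE 0.12, adjusted p = 0.000664), and was the only member past both thresholds, which 4.49% of genes passed downwards and 6.3% upwards. Without the WT library that stood apart the value for CPD was -0.90, with an adjusted p of 2.26e-05. BRI1 had -0.86 (adjusted p = 0.000332) and BES1 -0.37 (adjusted p = 0.00312). DET2 at -0.27 (adjusted p = 0.0311) and BZR1 at -0.24 (adjusted p = 0.0499) were near the threshold, and under median-ratio scaling they had adjusted p of 0.336 and 0.491. Both passed in only 1 of 6 fits with a library left out, with adjusted p of 0.0618 to 0.108 for DET2 and 0.0679 to 0.158 for BZR1 in the others. In these groups 2 of 4 root markers were lower in CsPYL1_5m plants, against the same 34.9% of all genes. The median was -0.37 over the members and -0.17 over all genes tested.

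The responses to iSB09 differed between the genotypes for 4 members, tested as an interaction over all 12 samples. CPD differed by -0.78 on the log2 scale, CsPYL1_5m minus WT (SE 0.19, adjusted p = 0.00791), and BRI1 by -0.74 (SE 0.14, adjusted p = 0.00251). BAS1 differed by -0.60 (SE 0.20, adjusted p = 0.0349) and BES1 by -0.35 (SE 0.092, adjusted p = 0.0127). All 4 lay below 0, against 21% of 20081 genes below and 11.8% above, and 0 of 10 members passed the fold threshold as well, against 9.63%. At an unadjusted p below 0.05 there were 6 members, and limma voom gave 3 lower at the adjusted p and 0 past both thresholds. Voom could test 6 of the members, BES1 not among them, and put 2718 genes lower and 1628 higher at the adjusted p. CPD and BRI1 thus fell in CsPYL1_5m plants while their means in WT were higher with iSB09, and BES1 rose in both genotypes but by less in CsPYL1_5m plants. Under median-ratio scaling the differences for BES1 (-0.18, adjusted p = 0.176) and BAS1 (-0.45, adjusted p = 0.105) no longer passed, and those for CPD and BRI1 did. BAS1 passed in only 4 of 12 fits with a library left out, with adjusted p of 0.0532 to 0.0828 in the others. Without the WT library that stood apart, DET2 at -0.42 (adjusted p = 0.0415), DWF4 at -0.40 (adjusted p = 0.0367) and BZR1 at -0.33 (adjusted p = 0.035) passed as well. For BR6OX2 the difference was -0.15, with a 95% interval from -0.63 to 0.34, and 0.02 under median-ratio scaling.

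Scaling bears on these counts because the TPM values of CsPYL1_5m plants with iSB09 had a median log2 fold change of -0.16 over all genes. Relative to that median, DET2 stood at -0.56, BRI1 at -0.33, CPD at -0.29, BES1 at 0.63 and BR6OX2 at 0.67. Under median-ratio scaling these 5 still passed the adjusted p, whereas DWF4, BR6OX1 and BAS1 did not, and BZR1 moved to 0.04. That scaling also changed the split of all genes past the adjusted p, which was 36.2% higher on the TPM scale and 51.0% higher after it in CsPYL1_5m plants. The split was 31.7% and 53.4% higher in CsPYL1_5m against WT with iSB09, and 35.9% and 58.3% for the difference between responses.

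Ratios of related genes within a sample do not depend on its scaling, and 3 were examined, chosen after the values were seen. BES1 had 7.35 ± 0.25 times the TPM of BZR1 in CsPYL1_5m plants with iSB09, against 4.87 ± 0.091 times in mock-treated ones, and 8.05 ± 0.31 times in WT with iSB09, against 5.02 ± 0.011 times in mock-treated WT (SD, n = 3 each). The treated ranges, 7.204 to 7.65 in CsPYL1_5m plants and 7.83 to 8.41 in WT, were apart from each other and from both mock ranges, and the mock ranges, 4.78 to 4.96 in CsPYL1_5m plants and 5.01 to 5.03 in WT, were apart too. CYP90D1 had 0.1001 ± 0.024 times the TPM of ROT3 in CsPYL1_5m plants with iSB09, against 0.651 ± 0.055 in mock-treated ones, and 0.329 ± 0.096 in WT with iSB09, against 0.667 ± 0.075 in mock-treated WT. BR6OX2 had 0.637 ± 0.10 times the TPM of CPD in CsPYL1_5m plants with iSB09, against 0.321 ± 0.037 in mock-treated ones, and 0.381 ± 0.032 in WT with iSB09, against 0.302 ± 0.046 in mock-treated WT. Exact two-sided permutation tests gave p = 0.1, the smallest value that 3 against 3 samples allow, for each iSB09 comparison, and 0.12 after adjustment over 12 tests. The design could not give a smaller p, so these ratios are a description.

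**Figure D3:**
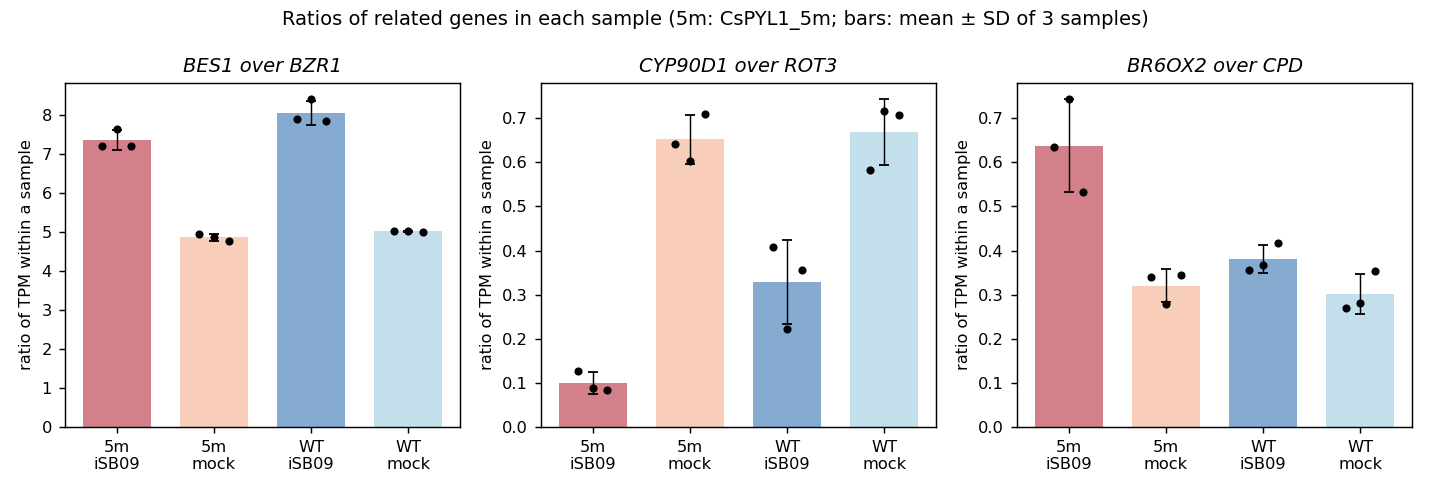
Ratios of TPM within each sample for 3 pairs of related genes. Axes start at 0, points are samples, bars are means, error bars are SD over 3 samples, and 5m stands for CsPYL1_5m. The ratio of CYP90D1 to ROT3 was 0.0837 to 0.128 in CsPYL1_5m plants with iSB09 and 0.602 to 0.71 in mock-treated ones.

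Larger changes were found in other genes of the pathway, taken from lists written down with earlier results of these data known. Of 4 other synthesis and sterol genes, 3 fell and 0 rose in CsPYL1_5m plants, where 42.3% of all genes fell and 24% rose, and 1 fell in WT, where 7.13% fell. CYP90D1 (AT3G13730), which acts beside ROT3, had 1.63, 1.17 and 1.36 TPM in CsPYL1_5m plants with iSB09, against 10.7, 10.2 and 11.1 TPM in mock-treated ones. It fell by 2.57 on the log2 scale (SE 0.12, adjusted p = 1.65e-07), past the fold threshold that 8.35% of genes passed downwards and 9.17% upwards. The WT levels were 6.36, 5.68 and 7.13 TPM with iSB09, against 11.1, 9.75 and 11.8 TPM with mock treatment, a fall of 0.73 (adjusted p = 0.0129). The groups were apart in both genotypes, and the responses differed by -1.84 (adjusted p = 1.38e-05).

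Among the 4 other genes of the BZR family, 2 fell in CsPYL1_5m plants, near the 42.3% of all genes that fell, and both passed the fold threshold, against 8.35%. In WT 0 of 4 passed in limma, against 7.5% of genes higher and 7.13% lower, 1 of them with an unadjusted p below 0.05. BEH1 (AT3G50750) had 2.48, 2.02 and 2.103 TPM in CsPYL1_5m plants with iSB09, against 7.36, 7.07 and 7.65 TPM in mock-treated ones, a fall of 1.54 on the log2 scale (adjusted p = 2.25e-06). BEH3 (AT4G18890) had 5.06, 3.94 and 5.204 TPM in CsPYL1_5m plants with iSB09, against 9.27, 12.3 and 10.9 TPM in mock-treated ones, a fall of 1.11 (adjusted p = 7.96e-05). The family thus held BES1, which rose, BZR1, which did not pass the test, and both of these, which fell past the fold threshold. In WT the log2 fold changes were -0.16 for BEH1 and -0.13 for BEH3, with adjusted p of 0.487 and 0.504.

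Of 15 receptor and cascade genes tested, 8 fell and 0 rose in CsPYL1_5m plants, with log2 fold changes from -0.83 to 0.13, which is near the 42.3% of all genes that fell and below the 24% that rose. In WT 0 passed in limma, against 7.5% of genes higher and 7.13% lower, 2 of them with an unadjusted p below 0.05. BKI1 (AT5G42750), an inhibitor of BRI1, was the only one of them past both thresholds in a comparison. With iSB09 it had 6.65, 5.41 and 7.22 TPM in CsPYL1_5m plants, against 13.0, 14.3 and 15.2 TPM in WT, a log2 fold change of -1.09 (adjusted p = 0.000577). In mock samples its mean TPM in CsPYL1_5m plants was already 0.798 times that in WT. Those groups did not overlap, though the difference did not pass the adjusted p. Of 5 other inactivation genes tested, 2 fell in CsPYL1_5m plants, about the 42.3% of all genes that fell, and 0 passed in limma in WT, against 7.5% higher and 7.13% lower, 1 of them with an unadjusted p below 0.05. UGT73C6 was listed at 0 in all samples, and it and 4 other low genes of these lists, CDG1, BSU1, PRE1 and PRE5, were not tested.

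Genes known to respond to brassinosteroids had the lowest median of the 5 related lists in CsPYL1_5m plants. Of 10 tested, 8 fell and 2 rose in CsPYL1_5m plants, against 42.3% and 24% of all genes, with a median log2 fold change of -1.12 against -0.16 over all genes. Past the fold threshold as well, 6 fell and 1 rose, against 8.35% and 9.17%. In WT 1, BEE1, fell and 0 rose in limma, against 7.13% and 7.5%, with 4 at an unadjusted p below 0.05. EXPA8 (AT2G40610), a cell wall expansin, had 1.18, 0.17 and 0.438 TPM in CsPYL1_5m plants with iSB09, against 10.7, 6.41 and 6.17 TPM in mock-treated ones, a log2 fold change of -2.98 (adjusted p = 4.37e-05). Not all CsPYL1_5m samples with iSB09 reached 1 TPM. EXPA8 was thus tested only through the group where it was higher, here and against WT with iSB09. SAUR15 (AT4G38850), an early auxin response gene, had a log2 fold change of -2.22 (adjusted p = 3.45e-06) and BEE1 (AT1G18400), a growth-promoting bHLH factor, -2.15 (adjusted p = 7.81e-07). SAUR15 rested on 8 to 94 reads per sample, and its CsPYL1_5m samples with iSB09 did not all reach 1 TPM either. It was likewise tested only through the mock group, where it was higher. Both EXPA8 and SAUR15 are among the 6 that fell past the fold threshold. HBI1 (AT2G18300), a related bHLH factor, had 6.94, 5.56 and 8.89 TPM in CsPYL1_5m plants with iSB09, against 41.8, 34.9 and 36.7 TPM in WT with iSB09, a log2 fold change of -2.35 (adjusted p = 8.03e-05). BEE2 (AT4G36540) had -1.74 (adjusted p = 0.000197) and EXPA8 -3.17 (adjusted p = 0.00419) in the same comparison. In mock samples no gene of the 5 related lists passed the adjusted p between the genotypes in limma, and 1 in each of 4 lists had an unadjusted p below 0.05.

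TCH4 (AT5G57560), which encodes a cell wall xyloglucan enzyme, was the response gene that rose past the fold threshold. IBH1 (AT2G43060) also rose in CsPYL1_5m plants, with a ratio of mean TPM of 1.61 and groups that did not overlap. The list was not sorted by whether brassinosteroids raise or lower a gene. TCH4 had 78.5, 95.7 and 110.9 TPM in CsPYL1_5m plants with iSB09, against 28.1, 27.4 and 36.4 TPM in mock-treated ones, and rose by 1.62 on the log2 scale (adjusted p = 1.03e-05). In WT it had 42.4, 45.8 and 41.4 TPM with iSB09, against 28.2, 42.4 and 32.9 TPM with mock treatment, with an adjusted p of 0.161. Of these response genes, the difference between the genotypes' responses was past both thresholds for 1 upwards and 5 downwards, against 6.03% and 3.6% of genes.

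**Figure D4:**
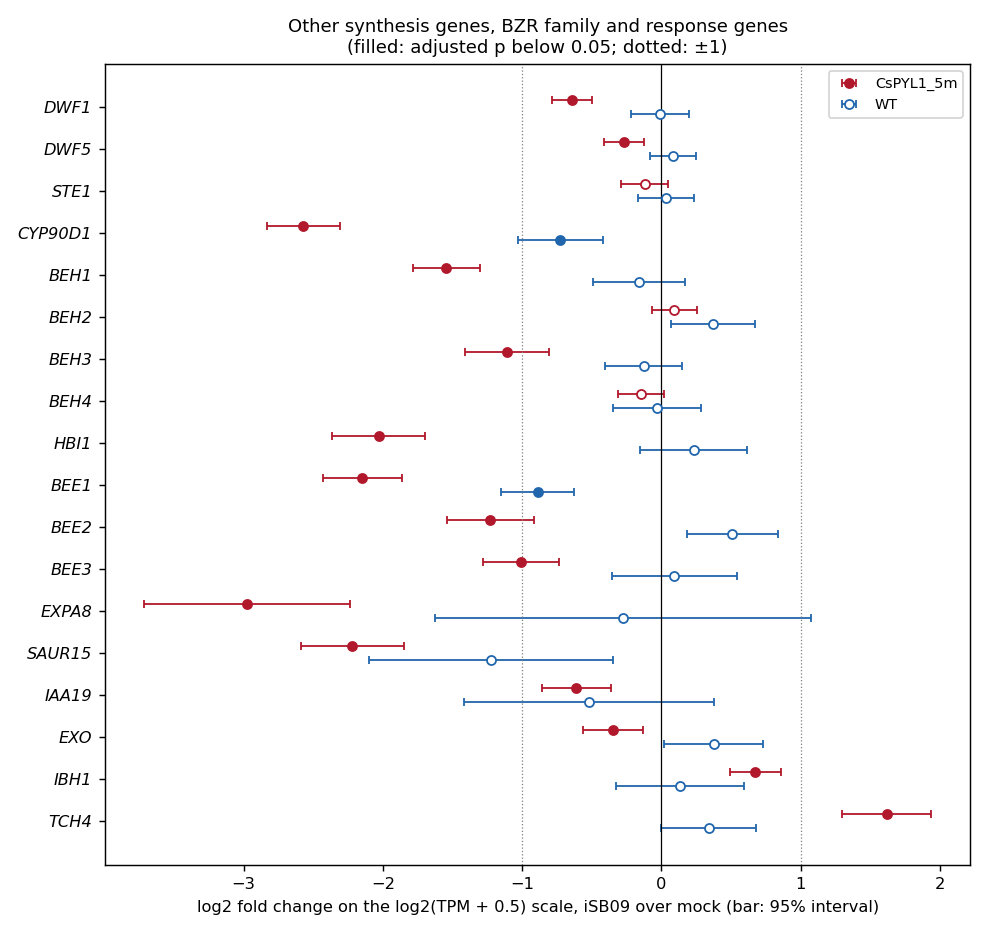
Log2 fold change with iSB09 over mock for all tested genes of 3 lists, other synthesis and sterol genes (DWF1 to CYP90D1), other BZR family genes (BEH1 to BEH4) and brassinosteroid response genes (HBI1 to TCH4), in CsPYL1_5m plants (red, upper) and WT (blue, lower). Bars are 95% intervals from limma, filled points have an adjusted p below 0.05, and dotted lines mark ±1. CYP90D1 fell in both genotypes, by 2.57 in CsPYL1_5m plants and by 0.73 in WT.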

How the data were processed

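RNA-seq of 12 seedling samples, 3 in each of 4 groups set by the sample labels, was used. The authors used cutadapt for trimming and HISAT2 for mapping to TAIR10, removed nonuniquely mapped pairs and used unstranded HTSeq-count with the Araport11 annotation. They deposited TPM values, which sum to the same total in every sample, and an RPKM table. All per-sample columns were used. Merged exon lengths from the TAIR10.1 annotation turned RPKM back into reads, which were whole (tolerance 0.05) in every sample for 72.6% of the annotated genes detected, 6 of the 10 members among them. Of the identifiers, 37051 matched that annotation.

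TPM is no count, so log2(TPM + 0.5) was compared by limma 3.58.1 in R 4.3.3, using a variance trend, on the 6 samples of each comparison, and on all 12 for the interaction. A gene was tested where all 3 replicates of a compared group reached 1 TPM, with Benjamini-Hochberg adjustment over all of them. Genes were called at an adjusted p below 0.05 with an absolute log2 fold change above 1. Counts at the adjusted p alone were added after the values were seen. Intervals are 95% intervals of the fit. The fits were tested on simulated data. Members and gene lists were chosen with earlier results of these data known. All members are named, and of each related list up to 3 called genes per direction and comparison. The 3 genes most correlated with a member were to be named only for members called in CsPYL1_5m plants, of which there were none.

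Other settings tried were a pseudocount of 0.1 or 1, a mean TPM filter or none, scaling by median ratios, quantile normalization, RPKM in place of TPM, no variance trend, a replicate block (alone or combined with the scaling), a joint fit of all 12 samples, and each library left out in turn. Limma voom on recovered reads and the ratios were added after the data were seen. Same-numbered samples deviated together from their group means in WT, with correlations of 0.164, 0.305 and 0.207 over 19612 genes for iSB09 against mock. Samples of unlike number had -0.28 to 0.1775 there, the highest of which lay above the lowest same-numbered value. Numbers were taken to pair samples in that comparison, from the data alone, and this pairing is uncertain. The main fits used no pairing in any comparison, and the replicate block gives the paired fit. In CsPYL1_5m plants the same-numbered correlations were 0.12, -0.023 and -0.139, and the numbers were not taken to pair samples in the other comparisons. Python 3.11.15, pandas 2.3.3, scipy 1.17.1 and matplotlib 3.10.9 were used, and blastn 2.17.0 for similar loci.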

Additional observations from a re-analysis of the deposited data

Results flagged for a closer look

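The responses to iSB09 differed between CsPYL1_5m plants and WT, by the interaction test in limma, for 4 members and 9 of the related genes named. For the members the differences on the log2 scale, CsPYL1_5m minus WT, were -0.78 for CPD, -0.60 for BAS1, -0.74 for BRI1 and -0.35 for BES1. For the related genes they were -1.84 for CYP90D1, -0.78 for BKI1 (adjusted p = 0.00357), -1.38 for BEH1 (adjusted p = 0.000136) and -0.98 for BEH3 (adjusted p = 0.00203). For the response genes they were -2.26 for HBI1 (adjusted p = 4.51e-05), -1.26 for BEE1 (adjusted p = 0.000273), -1.74 for BEE2 (adjusted p = 0.000123), -2.70 for EXPA8 (adjusted p = 0.017) and 1.28 for TCH4 (adjusted p = 0.00134). The log2 fold changes of HBI1 and BEE2 in WT were 0.23 and 0.51, with adjusted p of 0.379 and 0.0502, so these genes, like CPD and BRI1, had estimates of opposite sign in the genotypes.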

How the results depend on the processing

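No member past the adjusted p changed direction under any alternative, and 815 of 896 member values kept their side of the adjusted p, 62 lost it and 19 gained it. In CsPYL1_5m plants the 6 members that fell were 3 under median-ratio scaling, with or without the replicate block, and the 2 that rose were 1 under voom, which could not test BES1. In WT 1 member, DET2, fell instead of 0 under median-ratio scaling, with RPKM, under quantile normalization, the replicate block with and without that scaling, a joint fit of the 12 samples and voom, and 1 instead of 2 rose under voom. With iSB09, the 5 members lower in CsPYL1_5m plants were 3 under median-ratio scaling, with RPKM and under quantile normalization, and 2 under voom and under the block with median-ratio scaling. The 1 called, CPD, was 0 under these settings except voom. The 4 members with a lower response were 2 under median-ratio scaling, with or without the block. Leaving out each library gave 1 to 2 members higher in each genotype, 3 to 7 lower and 0 to 1 called lower with iSB09, and 3 to 7 with a lower response. The replicate block changed the call of DET2 in WT (adjusted p = 0.0419), and with iSB09 also those of DET2 (0.0609), BZR1 (0.059) and ROT3 (0.047), and changed no other member's call. Genes past the adjusted p in WT numbered 2869, but 5322 in a joint fit and 757 without mock replicate 3 (called, 750 and 420), so WT shares depend on the setting. Voom, with fewer genes, gave 6251 against 10030 with iSB09 and 4346 against 6568 for the difference. Genes called between the mock groups numbered 13, against 2 under voom and 5 without WT mock replicate 3. Under median-ratio scaling the share of called genes that were higher was 64.0% in place of 52.3% in CsPYL1_5m plants, 73.5% in place of 58.4% with iSB09 and 76.2% in place of 62.7% for the difference. BAS1 and BR6OX1 had the lowest levels of the members, 0.60 to 4.57 TPM, and how depth limits each member was not compared.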
